A study of Mus musculus with 6 samples.

Results

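Prostaglandin synthesis and receptor genes were taken as the 10 genes *Pla2g4a*, *Ptgs1*, *Ptgs2*, *Ptges*, *Ptgis*, *Ptgds*, *Hpgd*, *Ptger3*, *Ptger4* and *Ptgfr*, matched by gene name. They are 10 of the 56884 gene IDs in the gene tables, and each name matched 1 ID. Their levels were compared between PPARγ2 K382Q- and PPARγ2 K382R-overexpressing cells, 3 libraries of each. PPARγ2 is the nuclear receptor that drives fat cell formation. In K382Q the lysine at position 382 is replaced by glutamine, which resembles an acetylated lysine, and in K382R by arginine, which resembles a deacetylated one, so the comparison asks how the acetylation state of that residue bears on beige adipocyte differentiation. All 6 libraries came from an immortalized mouse cell line of the stromal vascular fraction (SVF) of subcutaneous white adipose tissue (scWAT), the fraction that holds adipocyte precursors. Both mutants were HA-tagged and delivered by a retroviral vector whose viral promoter drives them, and infected cells were selected with puromycin. Both groups were harvested on day 2 of beige differentiation in a medium with insulin (5 μg/mL), dexamethasone (2 μg/mL), isobutylmethylxanthine (500 μM), indomethacin (125 μM), rosiglitazone (0.5 μM) and T3 (1 nM). Libraries of uninfected, wild-type PPARγ2 or undifferentiated cells were not analysed here, so each value is a difference between the mutants and not a response to either. The sample labels call the 3 libraries of a group biological replicates without saying how the cultures were separated, and p-values measure only the spread between these libraries.

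Prostaglandins are lipid signals made from arachidonic acid, which phospholipases A2 release from membranes. The cyclooxygenases turn it into the unstable prostaglandin H2, terminal synthases convert that into the single prostaglandins, and a dehydrogenase inactivates them after uptake, while G protein-coupled receptors on the cell surface read them. In adipose tissue prostacyclin is known to favour adipocyte formation, prostaglandin F2α is known to inhibit it, and *Ptgs2* has been tied to the recruitment of beige adipocytes. Indomethacin, present in both groups, blocks both cyclooxygenase enzymes, and the values here are levels of RNA, not of enzyme activity or of prostaglandins.

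The upstream sequences of the 3 genes on which the results turn are shown for reference, namely both cyclooxygenases and the prostaglandin E2 synthase, whose ratios are compared. They are the 250 bases before the RefSeq start of each gene on the gene's own strand, taken from RefSeq (table of build GRCm38.p6) and matched at 1 place each in GRCm39. In *Ptgs2* (chr1:149975532-149975781, plus strand) the capitals mark a GC box and the C/EBP palindrome. In *Ptges* (chr2:30793310-30793559, minus strand) they mark 2 GC boxes, and in *Ptgs1* (chr2:36120188-36120437, plus strand) there are none. The RefSeq start of *Ptges* lies 26566 bases inside the 5′ end of the gene as the gene tables give it.
Ptgs2: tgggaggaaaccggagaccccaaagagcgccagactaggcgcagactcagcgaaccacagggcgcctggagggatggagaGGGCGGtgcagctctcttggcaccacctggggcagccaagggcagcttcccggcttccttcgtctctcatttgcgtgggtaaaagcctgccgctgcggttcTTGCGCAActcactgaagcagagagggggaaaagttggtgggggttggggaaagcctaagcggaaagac
Ptgs1: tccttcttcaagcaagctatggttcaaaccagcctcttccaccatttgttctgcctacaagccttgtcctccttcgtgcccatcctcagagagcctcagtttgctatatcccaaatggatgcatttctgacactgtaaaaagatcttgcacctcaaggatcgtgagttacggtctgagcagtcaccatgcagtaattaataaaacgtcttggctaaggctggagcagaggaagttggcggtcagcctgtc
Ptges: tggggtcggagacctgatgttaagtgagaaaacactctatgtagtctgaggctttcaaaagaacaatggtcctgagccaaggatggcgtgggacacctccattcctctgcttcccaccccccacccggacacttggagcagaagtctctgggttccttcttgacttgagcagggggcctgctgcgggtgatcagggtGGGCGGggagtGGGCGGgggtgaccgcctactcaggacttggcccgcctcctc

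A further site of *Ptgs2* lies just inside its first exon (chr1:149975788-149975809, plus strand), where the capitals mark a cAMP response element core and an E-box that share 2 bases.
Ptgs2 site: accactACGTCACGTGgagtcc

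The motifs searched on both strands were the cAMP response element core TGACGT, the E-box CACGTG, the C/EBP palindrome TTGCGCAA, the GC box GGGCGG, the TATA box TATAAA, a PPAR response element of the direct repeat 1 type (AGGTCANAGGTCA) and the NF-kB site. Windows were 300 bases, from 250 before to 50 after the start, and were found for 9 of the 10 genes (10 windows, *Pla2g4a* having 2); *Ptgis* had none. Of all 32851 RefSeq promoters, 7.51% held the cAMP response element core, 7.15% the E-box, 0.183% the C/EBP palindrome, 35.7% the GC box, 13.6% the TATA box, 0.0396% the PPAR response element and 8.46% the NF-kB site. In the *Ptgs2* window the GC box began at position -170 and the palindrome at -69, the start being position 1. GC boxes also occurred in the windows of *Hpgd*, *Ptger3*, *Ptger4* and *Ptgfr*, a TATA box in those of *Hpgd* and the second start of *Pla2g4a*, and the NF-kB site in that of *Ptgds*. A match describes these letters only, and binding was not measured in these libraries.

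Levels are given as TPM, a share of all transcripts corrected for gene length, so levels of different genes can be set side by side. In all 6 libraries 4 of the 10 genes had a TPM of at least 10: *Ptgs1*, *Pla2g4a*, *Ptges* and *Ptgs2*, together 97.7% to 98.8% of the summed TPM of the 10. *Ptgis*, *Hpgd*, *Ptgfr*, *Ptger4* and *Ptger3* were rare, with a TPM of at most 2.24 in any library, and *Ptgds* was listed at 0. A gene was tested with limma on log2(TPM + 0.5) where its TPM was at least 0.5 in at least 3 libraries, and called where its Benjamini-Hochberg adjusted p-value over all genes tested was under 0.05. Of the 10 genes 7 were tested and 4 were called (*Ptgs1*, *Ptgs2*, *Ptgis* and *Ptgfr*), all lower in K382Q. *Ptgfr* reached the filter in its K382R libraries alone and so could only be called lower. Among all 15426 genes tested 48.1% were called, 36.9% of all as lower and 11.1% as higher in K382Q, so a call alone does not set a member apart from other genes. None of the 7 passed the fold threshold of 2 that the study used for its differentially expressed genes (0 genes, limma, against 3.88% of all genes tested), and 4 had an unadjusted p-value under 0.05. That count rests on the pseudocount of 0.5, since with a pseudocount of 0.1 *Ptgis* was called beyond 2-fold (-1.08, adjusted p = 0.0223, limma).

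**Figure D1:**
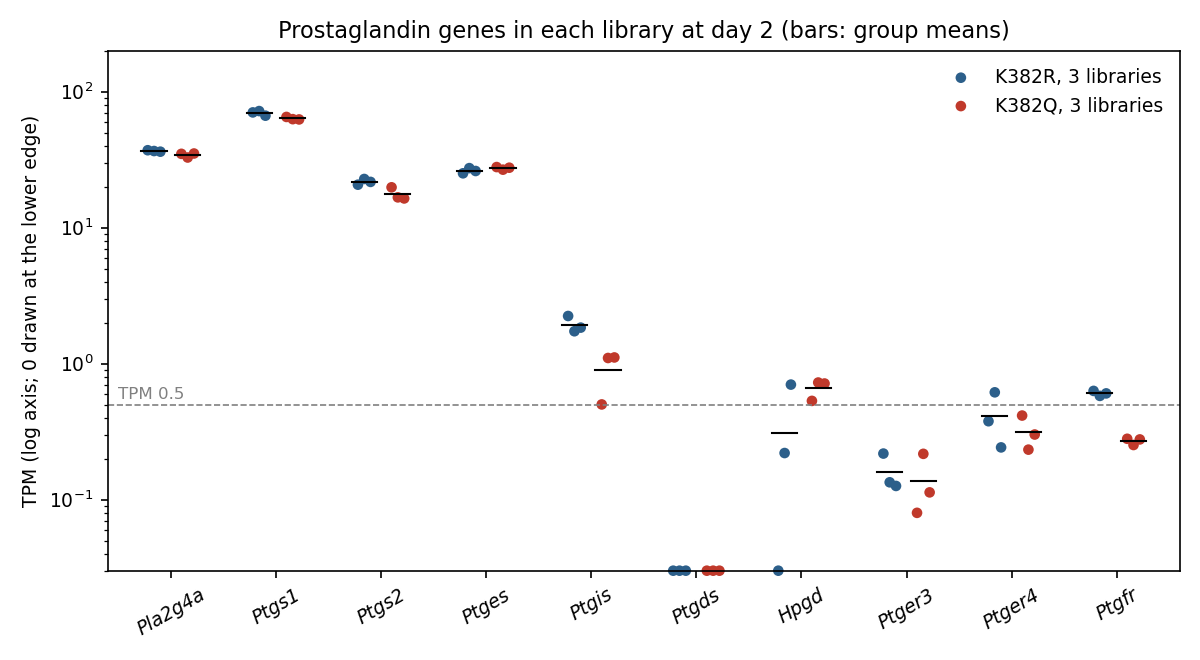
TPM of the 10 prostaglandin genes on a log axis, 1 point per library (blue, K382R; red, K382Q) and a bar at each group mean, with values of 0 drawn on the lower edge and the filter of TPM 0.5 dashed. *Ptgs1*, *Pla2g4a*, *Ptges* and *Ptgs2* lie between 16.4 and 72.0 in every library, and *Ptgis* and *Ptgfr* are lower in each K382Q library than in any K382R library.

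The TPM scale itself moved between the groups. The median log2 fold change of all genes tested was -0.14 (K382Q against K382R), and median-ratio scaling, which sets the median gene to almost no change, brought it to 0.0032. The share of called genes that were higher in K382Q was 23.2% on the TPM scale and 49.2% with median-ratio scaling. With that scaling 2 members were called, *Ptges* as higher and *Ptgis* as lower, beside 40.3% of all genes tested (19.8% higher and 20.4% lower). The change of each tested member is therefore also given relative to the median gene. RNA of whole cultures was measured, so fewer cells that express a gene and less of its RNA per cell cannot be told apart.

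At the first step of the pathway, *Pla2g4a* did not pass the test. *Pla2g4a* (ENSMUSG00000056220.15, chromosome 1, 149705369 to 149837041 of GRCm39, minus strand) encodes the cytosolic phospholipase A2 that prefers membranes rich in arachidonic acid. Its TPM was 34.9, 32.8 and 35.1 in K382Q and 37.1, 36.6 and 36.2 in K382R. The 3 K382Q libraries lay just below the 3 K382R libraries, with no overlap. Its log2 fold change of -0.10 (standard error 0.0428, 95% interval -0.20 to 0.00) missed the threshold (adjusted p = 0.103, limma), and it turned to 0.05 with median-ratio scaling and 0.07 with quantile normalization. Relative to the median gene it was 0.04.

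*Ptgs1* was the most abundant of the 10 genes, and its small decrease was no larger than that of the median gene. It encodes the cyclooxygenase that most tissues express at rest (ENSMUSG00000047250.14, chromosome 2, 36120438 to 36142284, plus strand). Its TPM was 65.2, 62.8 and 62.5 in K382Q and 70.4, 72.0 and 66.6 in K382R. Every K382Q library was below every K382R library, the nearest pair being K382Q replicate 1 and K382R replicate 3. On the TPM scale *Ptgs1* was lower in K382Q by a log2 fold change of -0.13 (standard error 0.0403, 95% interval -0.23 to -0.04, adjusted p = 0.0282, limma), but the direction turned with median-ratio scaling (0.02) and quantile normalization (0.03). Relative to the median gene its change was 0.00, and 29.8% of all genes tested had a smaller absolute log2 fold change. The call was lost in 4 of the 6 fits that left out 1 library (without K382Q replicate 2 or 3, or K382R replicate 1 or 2), with adjusted p up to 0.098 (limma).

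*Ptgs2*, the inducible cyclooxygenase, had the largest absolute log2 fold change of the abundant 4 on the TPM scale, but a smaller one than *Ptges* with median-ratio scaling (-0.15 against 0.21) and quantile normalization (-0.14 against 0.22). Its gene (ENSMUSG00000032487.9) lies on chromosome 1 from 149975782 to 149983978 on the plus strand. TPM was 19.8, 16.7 and 16.4 in K382Q and 20.7, 22.8 and 21.7 in K382R. The groups did not overlap, though K382Q replicate 1 came close to K382R replicate 1. The mean was 17.6 ± 1.88 (SD, n = 3) in K382Q and 21.7 ± 1.05 (SD, n = 3) in K382R. *Ptgs2* was 1.23-fold lower in K382Q on the log2(TPM + 0.5) scale, a log2 fold change of -0.30 (standard error 0.0801, 95% interval -0.48 to -0.11, adjusted p = 0.0171, limma). Relative to the median gene the change was -0.16. The call was lost with median-ratio scaling (-0.15, adjusted p = 0.156, limma) and in 3 of the 6 fits that left out 1 library (without K382Q replicate 2, K382Q replicate 3 or K382R replicate 2), while the direction held in all 15 alternatives. Of all genes tested 61.1% had a smaller absolute log2 fold change.

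On the TPM scale *Ptges* was the one abundant member with a log2 fold change above 0, and it did not pass the test. It encodes the inducible membrane synthase of prostaglandin E2, which takes over the product of the cyclooxygenases (ENSMUSG00000050737.14, chromosome 2, 30779483 to 30819875, minus strand). Its TPM was 27.9, 26.7 and 27.6 in K382Q and 25.1, 27.4 and 26.1 in K382R. The groups overlapped, with K382R replicate 2 inside the K382Q range. The log2 fold change came to 0.07 (standard error 0.0484, 95% interval -0.05 to 0.18, adjusted p = 0.307, limma) and 0.20 relative to the median gene. It passed the threshold as higher in K382Q with median-ratio scaling (0.21, adjusted p = 0.00787, limma), quantile normalization (0.22, adjusted p = 0.00668) and FPKM in place of TPM (0.14, adjusted p = 0.044), and was above 0 in all 15 alternatives.

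Within a library the scale cancels, so ratios of members can be compared without it. The ratio of *Ptges* to *Ptgs2* was 1.41, 1.60 and 1.68 in K382Q and 1.21, 1.20 and 1.20 in K382R. It was higher in each K382Q library than in any K382R library, with means of 1.56 ± 0.14 (SD, n = 3) and 1.21 ± 0.00789 (SD, n = 3). The ratio of *Ptges* to *Ptgs1* was 0.428, 0.425 and 0.442 in K382Q against 0.357, 0.380 and 0.391 in K382R, again without overlap. With 3 libraries against 3, a two-sided exact permutation test of a ratio cannot give a p-value below 0.1. The ratio of *Ptgs1* to *Ptgs2*, the resting to the inducible cyclooxygenase, was 3.29, 3.76 and 3.81 in K382Q and 3.41, 3.16 and 3.07 in K382R. Here the groups overlapped through K382Q replicate 1, the library with the highest *Ptgs2* of its group. The ratio of *Ptgs2* to *Pla2g4a* was 0.567, 0.511 and 0.467 in K382Q and 0.557, 0.622 and 0.601 in K382R, and overlapped through the same library. Of single genes tested 57.0% did not overlap between the groups. The share among pairs of genes was not counted, so nothing is read from the separation of a ratio. A ratio shows unequal change of its genes and not which of them moved.

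**Figure D2:**
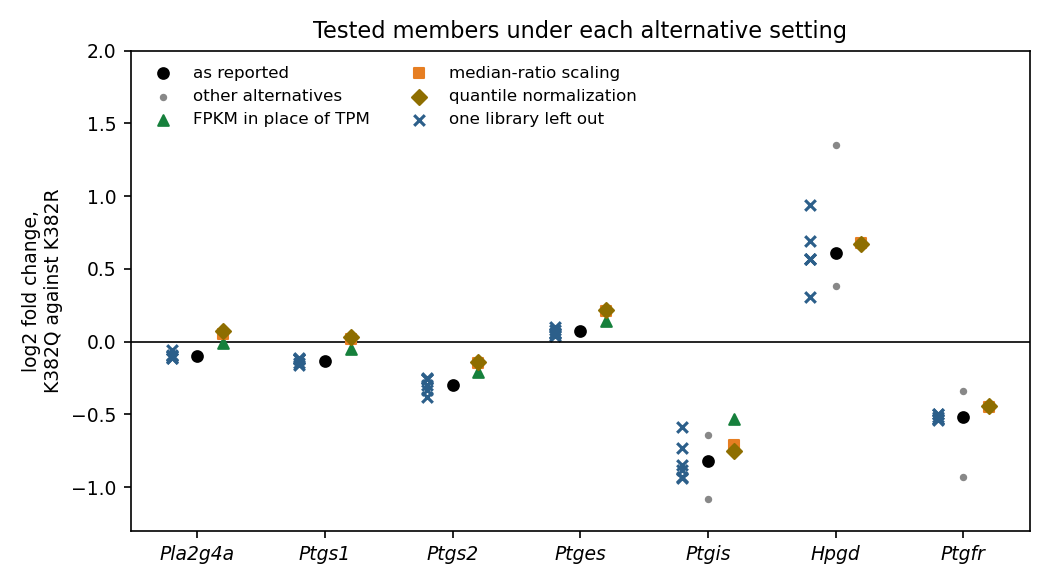
Log2 fold change (K382Q against K382R) of the 7 tested prostaglandin genes as reported (black) and under each alternative processing. *Ptgis* and *Ptgfr* stay below 0 and *Hpgd* and *Ptges* above 0 throughout, *Ptgs2* stays below 0 but nearer to it after rescaling, and *Pla2g4a* and *Ptgs1* cross to above 0 with median-ratio scaling and quantile normalization.

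The largest log2 fold change among the called members on the log2(TPM + 0.5) scale was that of *Ptgis*, the prostacyclin synthase (ENSMUSG00000017969.14, chromosome 2, 167033725 to 167082524, minus strand), though the means of *Ptgfr* lay further apart as a ratio. It was rare, with a TPM of 0.501, 1.10 and 1.11 in K382Q and 2.24, 1.73 and 1.84 in K382R. All 3 K382Q libraries were below all 3 K382R libraries, and K382Q replicate 1 was the lowest of the 6. The mean TPM in K382Q was 0.468 times that in K382R. On the log2(TPM + 0.5) scale, which understates the change of rare genes, *Ptgis* was 1.77-fold lower (log2 fold change -0.82, standard error 0.22, 95% interval -1.33 to -0.31, adjusted p = 0.0166, limma), and -0.69 relative to the median gene. It lay below 0 in all 15 alternatives and was called in 13 of them, the call being lost without K382R replicate 1 (-0.73, adjusted p = 0.058, limma) and with no filter on low values (adjusted p = 0.0654). The deposited coverage was 0.462 to 1.27 in K382Q and 1.74 to 2.53 in K382R. With the pseudocount of 0.5 *Ptgis* alone among the members was called with a fold over 1.5, as were 12.1% of all genes tested (with 0.1 *Ptgfr* was too, at -0.93), and 93.0% of all genes tested had a smaller absolute log2 fold change.

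*Ptgds*, the lipocalin-type synthase of prostaglandin D2 (ENSMUSG00000015090.14, chromosome 2, 25356721 to 25360058, minus strand), was listed at a TPM of 0 in each of the 6 libraries, and no fold is given. The other prostaglandin D2 synthase, *Hpgds*, was no member and was too rare to be tested, with a TPM of 0.246 to 0.429 in K382Q and 0.446 to 0.657 in K382R. Its libraries did not overlap between the groups.

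*Hpgd* encodes the dehydrogenase that begins the inactivation of prostaglandins (ENSMUSG00000031613.10, chromosome 8, 56747620 to 56774078, plus strand). Its TPM was 0.532, 0.726 and 0.714 in K382Q and 0, 0.220 and 0.701 in K382R. The K382Q libraries were alike, whereas the K382R libraries ranged from none to the K382Q level, so the groups overlapped. *Hpgd* passed the filter through its 3 K382Q libraries and 1 K382R library. Its log2 fold change of 0.61 (standard error 0.325, 95% interval -0.15 to 1.37, adjusted p = 0.164, limma), 0.74 relative to the median gene, did not pass the threshold. Single libraries decided its value, which was 0.94 and called without K382R replicate 3 (adjusted p = 0.0279, limma) and 0.31 without K382R replicate 1 (adjusted p = 0.42), with no call in any other fit that left out a library.

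Of the receptors among the members only *Ptgfr*, the receptor of prostaglandin F2α, reached the filter (ENSMUSG00000028036.7, chromosome 3, 151502139 to 151543267, minus strand). Its TPM was 0.280, 0.252 and 0.277 in K382Q and 0.630, 0.579 and 0.604 in K382R. The 2 sets of libraries were tight and far apart relative to their spread, with means of 0.270 ± 0.0153 (SD, n = 3) and 0.604 ± 0.0251 (SD, n = 3). It passed the filter through its K382R libraries alone, so it could enter the test only because it was higher there. The fitted log2 fold change of -0.52 (standard error 0.181, 95% interval -0.94 to -0.10, adjusted p = 0.0461, limma) depends on the pseudocount of 0.5, which is as large as the levels themselves. Relative to the median gene it was -0.39. The mean TPM in K382Q was 0.446 times that in K382R, and the log2 fold change ranged from -0.93 to -0.34 over 13 alternatives. The call was lost in each of the 6 fits that left out a library (adjusted p between 0.085 and 0.108, limma). It held in 4 of the 13 alternatives, among them no intensity trend (adjusted p = 0.000497, limma). With no filter on low values *Ptgfr* was the only member called (adjusted p = 0.00998, limma).

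The receptors of prostaglandin E2 among the members were rare too. *Ptger3*, which lowers cAMP (ENSMUSG00000040016.17, chromosome 3, 157272529 to 157351525, plus strand), had a TPM of 0.0799, 0.217 and 0.113 in K382Q and 0.218, 0.134 and 0.126 in K382R. *Ptger4*, which raises cAMP (ENSMUSG00000039942.16, chromosome 15, 5236142 to 5273668, minus strand), had a TPM of 0.415, 0.233 and 0.301 in K382Q and 0.377, 0.615 and 0.242 in K382R. For both genes the groups overlapped, and neither passed the filter or was tested. The deposited coverage was 0.0905 to 0.303 for *Ptger3* and 0.147 to 0.48 for *Ptger4*.

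In order of mean TPM, *Ptgs1* stood above *Pla2g4a*, *Pla2g4a* above *Ptges* and *Ptges* above *Ptgs2* in each of the 6 libraries. *Ptgis* came next in 5 of them, below which *Hpgd*, *Ptgfr* and *Ptger4* overlapped in their values, and *Ptger3* lay below *Ptgfr* and *Ptger4* in all libraries. The mean TPM of *Ptgs1* exceeded that of 82.3% of all genes tested, that of *Ptgs2* 55.7% and that of *Ptgis* 15.2%. Summed over the 10 genes the TPM was 150, 142 and 144 in K382Q and 157, 162 and 154 in K382R, lower in every K382Q library on the TPM scale, though *Ptgs1* and *Pla2g4a*, which make up most of it, turn above 0 after median-ratio scaling. Nearly all of that sum is *Ptgs1*, *Pla2g4a*, *Ptges* and *Ptgs2*. The 7 tested members had a median log2 fold change of -0.13, beside -0.14 for all genes tested, and a median absolute log2 fold change of 0.30 beside 0.23. With *Ptgfr* and *Hpgd* admitted through the group in which each was higher, these medians describe the tested genes only. The libraries did not overlap between the groups in 5 of the 7, *Ptgfr* included, and in 57.0% of all genes tested, and nothing is read from that count.

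**Figure D3:**
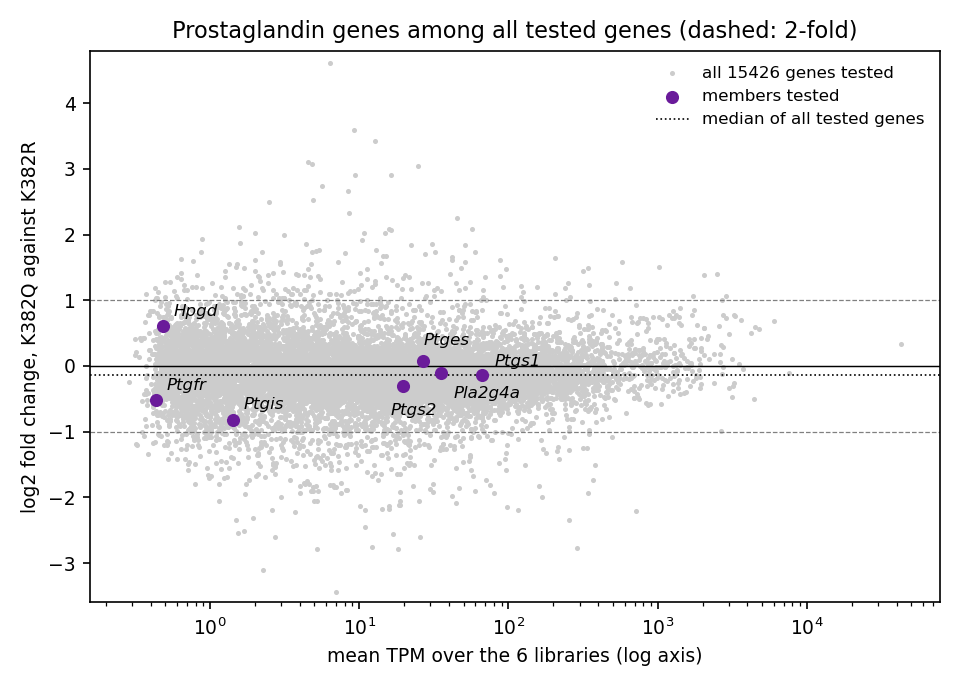
Log2 fold change (K382Q against K382R) against mean TPM over the 6 libraries (log axis) for all 15426 genes tested (grey) and the 7 tested prostaglandin genes (purple), with the median gene dotted and 2-fold dashed. *Ptgs1* lies on the median line at -0.13 and, with *Pla2g4a*, above 0 after median-ratio scaling, *Ptgs2* lies below the line and *Ptges* above it, and no member is beyond 2-fold with the pseudocount of 0.5 used here, while *Ptgis* reaches -1.08 with 0.1.

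Other genes of the pathway, taken from textbook membership, were set beside the members. Of 41 such genes 21 were tested and 14 were called, 5 higher and 9 lower in K382Q, where 48.1% of all genes tested were called (11.1% higher and 36.9% lower). With median-ratio scaling 12 were called, 7 higher and 5 lower, beside 40.3% of all genes. Among the 15 other enzymes and carriers 8 of the 12 tested were called, 3 higher and 5 lower, and with median-ratio scaling 5 higher and 2 lower. *Slco2a1*, the carrier that takes prostaglandins up before *Hpgd* inactivates them, had a TPM of 5.25, 5.30 and 4.99 in K382Q and 8.87, 8.04 and 8.82 in K382R. It fell without overlap, by 0.68 on the log2 scale (standard error 0.0778, adjusted p = 0.000267, limma), and was called in all 15 alternatives. *Abcc4*, an exporter of prostaglandins, had a TPM of 27.8, 28.5 and 28.2 in K382Q and 22.7, 24.2 and 23.0 in K382R. It rose by a log2 fold change of 0.27 (adjusted p = 0.00169, limma), also in all 15 alternatives. The carrier for uptake fell and the exporter rose, neither by 2-fold.

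The reductases that act on prostaglandins after *Hpgd* were divided as well. *Ptgr1* fell by 0.62 on the log2 scale, from 13.4, 13.3 and 12.6 in K382R to 9.16, 7.19 and 8.81 TPM in K382Q (adjusted p = 0.0011, limma), and *Ptgr2* (0.13, adjusted p = 0.0436) and *Ptgr3* (0.18, adjusted p = 0.0208) rose slightly. *Ptgr1* was called in 15, *Ptgr3* in 12 and *Ptgr2* in 8 of 15 alternatives. Of the other prostaglandin E2 synthases, *Ptges3*, a co-chaperone that also has this activity, was called (-0.28, adjusted p = 0.00628, limma) and *Ptges2* was not (0.07, adjusted p = 0.302), though *Ptges2* was called higher in 3 of 15 alternatives, median-ratio scaling among them (0.21, adjusted p = 0.0102). *Cbr3* (-0.28, adjusted p = 0.00273, limma) and *Akr1b3*, an aldose reductase that can form prostaglandin F2α (-0.20, adjusted p = 0.00101), were called lower. The calls of *Ptges3*, *Cbr3* and *Akr1b3* were lost with median-ratio scaling.

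Neither of the 2 tested genes among the 6 other prostanoid receptors was called. *Ptgir*, the receptor of the prostacyclin that *Ptgis* makes, had a TPM of 0.451, 0.631 and 0.528 in K382Q and 0.968, 1.09 and 0.782 in K382R. Its libraries did not overlap, and it came near the threshold (adjusted p = 0.0591, limma) with a log2 fold change of -0.48. With median-ratio scaling it was -0.39 (adjusted p = 0.124, limma). The value ranged from -0.72 to -0.34 over 13 alternatives, with a call in 1 of them, and for so rare a gene it depends on the pseudocount. *Ptger1* had a log2 fold change of -0.24 (adjusted p = 0.402, limma). *Ptgdr* was at 0 in all 6 libraries, as was the synthase *Ptgds* of its ligand.

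Of 20 other phospholipases A2, 7 were tested and 6 called, 2 higher and 4 lower in K382Q. That compares with 48.1% of all genes tested, 11.1% higher and 36.9% lower. With median-ratio scaling 5 of the 7 were called, 2 higher and 3 lower, beside 40.3% of all genes. The most abundant was *Pla2g12a*, a secreted form, which rose from 182, 172 and 171 in K382R to 233, 252 and 237 TPM in K382Q (log2 fold change 0.46, adjusted p = 7.8e-05, limma). *Pla2g2e*, another secreted form, had a TPM of 5.96, 7.08 and 6.25 in K382Q and 1.24, 3.0 and 3.76 in K382R, a log2 fold change of 1.22 (adjusted p = 0.0112, limma). *Pla2g5*, also secreted, had a TPM of 0.230, 0.0721 and 0 in K382Q and 1.46, 0.989 and 0.866 in K382R. It entered the test through K382R alone, so it could only be called lower (-1.42, adjusted p = 0.00185, limma). Its log2 fold change ranged from -2.73 to -0.93 over 13 alternatives. Lower as well were the calcium-independent *Pla2g6* (-0.47), the lysosomal *Pla2g15* (-0.57) and *Plaat3* (-0.31), the last not with median-ratio scaling. The absolute log2 fold change of *Pla2g4a* was smaller than that of each of these 6.

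**Figure D4:**
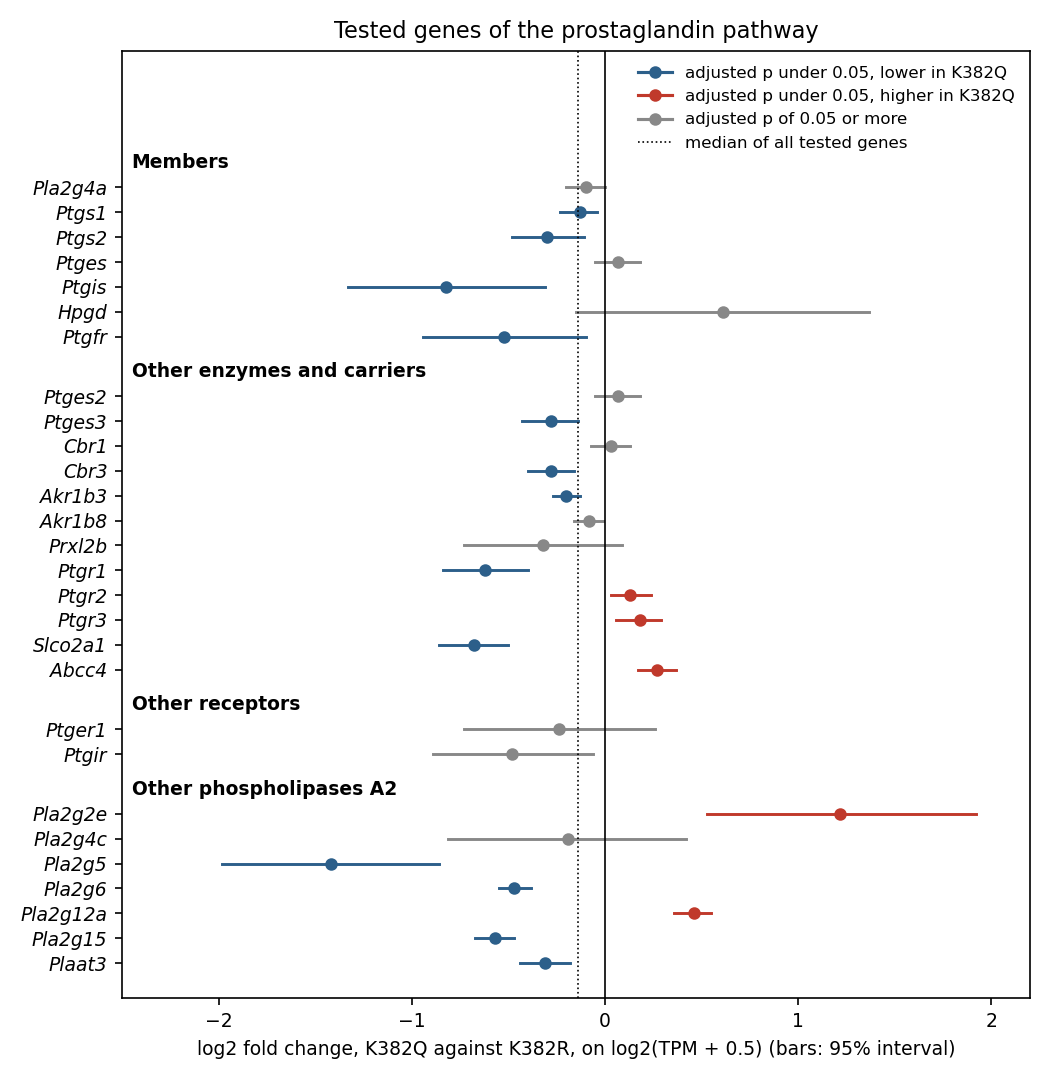
Log2 fold change with 95% interval (K382Q against K382R) of the tested prostaglandin genes and of the tested other enzymes, carriers, receptors and phospholipases A2, coloured by call, with the median of all genes tested dotted. *Ptgs1* sits on the dotted line and, like *Pla2g4a*, above 0 after median-ratio scaling. The largest values as reported are those of *Pla2g5* (-1.42, from -2.73 to -0.93 over the alternatives) and *Pla2g2e* (1.22).

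The genes whose log2(TPM + 0.5) was most like that of *Ptgs2* over the 6 libraries were *Dusp11*, *Crybg3* and *Gypc*, each with a Pearson correlation of 0.996 among 10643 genes with a mean TPM of at least 5. Their mean TPM was 47.4, 5.90 and 46.8 in K382Q and 52.2, 6.73 and 53 in K382R. The 6 points share the split into 2 groups, and the correlation is a description. *Pla2g4a* and *Ptgs2* lie 139 kb apart on chromosome 1 with 3 genes between them. The antisense neighbour *Ptgs2os*, on the minus strand, starts 67 bases before *Ptgs2* and runs away from it through the printed upstream sequence, and it had a TPM of 0.127 to 0.358. *Ptgs2os2* had 3.28 to 4.20 in K382Q and 2.72 to 4.65 in K382R, with a log2 fold change of -0.05 (adjusted p = 0.839, limma).

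Whether the counting used strand is not given in the sources used here, so reads of overlapping genes cannot be told apart. *Ptger4* shares 229 exonic bases (3.44% of its own) with *Ttc33* on the other strand, which had a TPM of up to 30.8, and 15.3% of its bases with the rare *Gm15937*. *Ptgs1*, *Ptgis* and *Ptgfr* share between 3.81% and 4.85% of their exonic bases with genes of a TPM of at most 0.537, and *Ptgs2* overlaps no annotated gene.

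The aligned length was 5.95 to 7.5 Gb in K382Q and 6.53 to 8.15 Gb in K382R. *Pparg*, whose mutant copies the vectors carry, had a TPM of 1333, 1164 and 1104 in K382Q and 1590, 1632 and 1612 in K382R, which joins vector and endogenous RNA and does not distinguish the mutants. It was lower in K382Q, at -0.43 on the log2 scale (adjusted p = 0.000977, limma), and its part in the members' differences was not tested. For comparison with the lists that follow, 48.1% of all genes tested were called, 11.1% higher and 36.9% lower. With median-ratio scaling 40.3% were called, 19.8% higher and 20.4% lower. Of 15 adipocyte genes all were tested, 6 called higher and 3 lower (10 and 2 with median-ratio scaling), and of 13 adipose progenitor genes 8 were tested and 6 called lower. *Dpp4* was at 0, and the summed progenitor TPM was 622 to 668 in K382Q and 951 to 986 in K382R. Most of that difference was *Ly6a* (mean TPM 467 in K382Q and 767 in K382R). *Col15a1* (113 and 116) and *F3* (14.2 and 13.7) were not called. Of 12 leukocyte genes 4 were at 0 in all libraries, *Ptprc* was at most 0.0129, and the sum was 11.8 to 12.8 in K382Q and 13.3 to 16.5 in K382R, with 3 genes tested and 1 called, *Cd14* (-0.32, not with median-ratio scaling). Of 8 mast cell genes only *Tpsab1* was above 1 TPM, at 275 to 288 in K382Q and 353 to 363 in K382R (-0.34, adjusted p = 6.15e-05, limma, called in all 15 alternatives), with *Mcpt4*, *Ms4a2* and *Fcer1a* at 0. Of 9 endothelial genes *Emcn* and *Erg* were at 0 and only *Pecam1* (0.15, not called) and *Egfl7* (-0.31, called, but not with median-ratio scaling) were tested. Of 10 smooth muscle and pericyte genes 6 were tested, 2 called higher and 2 lower (3 and 2 with median-ratio scaling). Their sums were 14.1 to 16.1 in K382Q and 25.7 to 27.7 in K382R. Most of that difference was *Acta2* (mean TPM 0.764 in K382Q and 13.2 in K382R), while *Des* and *Mylk* were called higher, so the sum does not describe the list. The part of the progenitor and smooth muscle genes and of *Tpsab1* in the lower *Ptgs2*, *Ptgis* and *Ptgfr* was not tested.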

How the data were processed

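RNA of the 6 libraries was sequenced as paired reads. After adapter trimming, the authors used HISAT2 with the GRCm39 genome for alignment and StringTie for gene levels. The annotation release and the strand setting are not given in the sources used here. The authors deposited 1 gene table per library with the coverage (not normalized), the FPKM and the TPM of each gene. The coverage did not follow the TPM from gene to gene and is not compared between genes. In K382Q replicate 1 *Pparg* had a coverage of 75.8 at a TPM of 1333, and *Ptgs2* 42.5 at 19.8. The deposited FPKM relates the reads of a gene to its length and to the depth of its library. The deposited TPM has an equal sum in each library and gives shares, not amounts. Between 3 and 5 repeated entries per library were summed, and 56884 gene IDs remained. The largest ratio of coverage to FPKM in a library gave its aligned length. Counts were not analysed here, so no counting interval is given and the precision is that of 3 libraries per group. At most 0.0117% of values were identical in any pair of libraries.

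Comparison of the mutants was two-sided and used log2(TPM + 0.5) in limma 3.58.1 (R 4.3.3), the variance following an intensity trend. It covered 15426 genes, those reaching a TPM of 0.5 in 3 or more libraries, and p-values were adjusted over all of them by the Benjamini-Hochberg method. On simulated libraries of this comparison (15131 genes tested) limma called 64 of 80 genes changed 2-fold and 106 of 112 changed 4-fold, 0 in the wrong direction, and 11 unchanged genes. The simulation left all other genes unchanged, whereas 48.1% were called in the data. It held no change under 2-fold, so it does not give the recovery of smaller changes. The members and the gene lists were chosen with earlier results of these data known. The lists, from general knowledge, were the other prostanoid enzymes and carriers, receptors and phospholipases A2, and 11 lists of lipoxygenase and leukotriene, arachidonate supply, NF-kB inflammatory, glucocorticoid-induced, cAMP-induced, adipocyte, adipose progenitor, leukocyte, mast cell, endothelial, and smooth muscle and pericyte genes. Named were every member, every called gene of the other prostanoid lists, up to 4 called genes of each other list by the size of the change, the 3 genes most like *Ptgs2*, and the antisense neighbours of *Ptgs2*. *Pparg* and genes that were named though not called or not tested were picked after their values were seen. The test was repeated with pseudocounts of 0.1 and 1, with no filter and with a minimum TPM of 1, on FPKM, after quantile normalization and after median-ratio scaling, without the intensity trend, with a replicate block, with single libraries left out, and with a fold of 1.5. Promoter windows came from RefSeq and exonic overlaps from GENCODE annotation. Tables and plots were made in Python 3.11.15 (matplotlib 3.10.9, numpy 2.4.6, pandas 2.3.3).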

Additional observations from a re-analysis of the deposited data

How the results depend on the processing

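The count of called members, 4 as reported, was 1 with no filter on low values and 2 with FPKM, median-ratio scaling or quantile normalization (*Ptges*, higher, and *Ptgis*, lower, with median-ratio scaling), and 1 to 4 with 1 library left out. Of all genes tested 48.1% were called as reported, 22.2% with no filter, 47.5% with FPKM, 40.3% with median-ratio scaling, 40.2% with quantile normalization and 41.4% to 45.7% with 1 library left out. A fold of 1.5 in place of 2 gave 1864 in place of 599 genes and 1 member (*Ptgis*) in place of 0. *Pla2g4a* reversed to 0.05 (median-ratio) and 0.07 (quantile), and *Ptgs1* to 0.02 and 0.03. *Ptgs1* lost its call with no filter (-0.13, adjusted p = 0.0511, limma), FPKM (-0.05, 0.397) and no intensity trend (-0.13, 0.0687), and in 4 of the 6 fits with 1 library left out, over which it ranged from -0.16 to -0.11. *Ptgs2* lost it with no filter (-0.30, 0.0539), FPKM (-0.21, 0.0638), median-ratio scaling (-0.15, 0.156) and quantile normalization (-0.14, 0.202), with -0.38 to -0.25 over the libraries left out. *Ptges* gained a call with quantile normalization (0.22), median-ratio scaling (0.21) and FPKM (0.14). *Ptgis* lost it with no filter (-0.82) and ranged from -0.94 to -0.59, *Hpgd* from 0.31 to 0.94 and *Ptgfr* from -0.54 to -0.50 over the libraries left out. The pseudocount also moved these rare genes: with 1 and 0.1 *Ptgis* was -0.64 and -1.08, *Hpgd* 0.38 and 1.35, and *Ptgfr* -0.34 and -0.93, with no call gained or lost. *Ptgfr* lost its call with median-ratio scaling (-0.45) and quantile normalization (-0.44), and *Ptgfr* and *Hpgd* were not tested with FPKM or a TPM of at least 1. The cause of these changes was not tested.

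Same-numbered libraries of the groups did not deviate together (correlations -0.0177, 0.0507 and 0.0223). With 3 libraries per group these values cannot show whether same-numbered cultures were handled together, which the labels do not say. With the replicate block 6987 genes were called in place of 7415, and *Ptgfr* (-0.52, adjusted p = 0.0955, limma) was the only member to lose its call. Over all alternatives 6195 to 7426 genes and 12 to 14 of the other pathway genes were called. The depth limits *Ptger3*, *Ptger4*, *Hpgd* and *Ptgfr*, which had a low TPM and a deposited coverage of at most 2.24.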

Other observations

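Genes that supply the pathway with arachidonic acid were called in both directions. Of 12 genes 10 were tested and 6 called, 4 higher and 2 lower in K382Q, and with median-ratio scaling 6, all higher. Among all genes tested 48.1% were called (11.1% higher and 36.9% lower), and with that scaling 40.3% (19.8% higher and 20.4% lower). *Fads2*, a desaturase on the way to arachidonic acid, had a TPM of 80.9, 79.5 and 75.9 in K382Q and 52.5, 59.6 and 58.6 in K382R (log2 fold change 0.47, adjusted p = 0.000284, limma). *Mgll* (0.38), which releases arachidonic acid from a monoglyceride, *Lpcat3* (0.34), which returns it to membranes, and *Acsl4* (-0.27, not called with median-ratio scaling), which activates it, were the next in size. Of 14 lipoxygenase and leukotriene genes 4 were tested and 3 called, all lower, or 1 higher and 2 lower with median-ratio scaling. *Mgst2* had a TPM of 6.24, 11.5 and 7.85 in K382Q and 22.3, 22.7 and 23.1 in K382R (-1.40, adjusted p = 0.00048, limma), followed by *Lta4h*, the leukotriene A4 hydrolase (-0.40), and *Mgst3* (-0.22, not called with median-ratio scaling). *Alox5*, the enzyme that opens the leukotriene branch, was at most 0.0626 TPM.

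*Ptgs2* is a known target of NF-kB, glucocorticoid and cAMP signalling. Among all genes tested 48.1% were called, 36.9% lower and 11.1% higher in K382Q (median log2 fold change -0.14). With median-ratio scaling 40.3% were called, 20.4% lower and 19.8% higher. Of 22 NF-kB inflammatory genes 16 of the 18 tested were called, all lower in K382Q (median log2 fold change -0.56), and with median-ratio scaling 11, 10 lower and 1 higher. The largest were *Csf1* (-1.81), *Cxcl5* (-1.57), *Il6* (-1.45) and *Icam1* (-1.40), with *Il1b* at 0 and *Tnf* at most 0.441 TPM. All 14 glucocorticoid-induced genes were tested, 10 called higher and 3 lower (median 0.42), or 11 and 3 with median-ratio scaling (median 0.57). They were led by *Ddit4* (0.99), *Sgk1* (-0.79), *Klf15* (0.74) and *Anxa1* (-0.74). Of 12 cAMP-induced genes 11 were tested, 3 called higher and 5 lower (median -0.37), or 3 and 4 with median-ratio scaling (median -0.23). These were led by *Rgs2* (0.90), *Pde4b* (-0.90), *Pde4d* (0.71) and *Fos* (-0.55). The log2 fold change of *Ptgs2* was -0.30, and the part of any of these lists in it was not tested.

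Among the cell type lists, the largest called changes were those of *Acta2* (-3.44), *Tagln* (-1.26), *Mylk* (0.67) and *Des* (0.57) for smooth muscle, *Icam1*, *Thy1* (-1.25), *Pdgfra* (-0.88) and *Pdgfrb* (-0.75) for progenitors, and *Adipoq* (-1.28), *Cfd* (1.23), *Slc2a4* (1.18) and *Cebpa* (-0.81) for adipocytes.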
